A study of Homo sapiens with 24 samples.

Results

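The comparison set HAP1 cells that lack OGG1 against HAP1 cells that retain it, whatever their MUTYH status. Its members were chosen by genotype label alone: the OG-enriched samples labelled OGG1-/ or DKO formed one side and those labelled WT or MUTYH-/ the other, giving 6 against 6. These 12 samples are all of the OG-enriched samples among the 24 of the series, and the other 12 are the matching inputs, which were sequenced without enrichment.

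8-Oxoguanine (OG) is the commonest oxidised form of guanine in DNA and can pair with adenine as well as with cytosine. OGG1 is the DNA glycosylase that excises OG opposite cytosine and so starts base excision repair, in which an endonuclease, a polymerase and a ligase complete the replacement. MUTYH is the glycosylase of the following step: it removes the adenine that a polymerase has placed opposite an OG that was not excised. In OG-seq the genomic DNA is fragmented, the fragments that carry OG are labelled and pulled down, and their reads are counted along the genome beside those of an input.

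HAP1 is an established, near-haploid human line derived from a chronic myeloid leukaemia, so a single edit suffices to knock out a gene. Each of the 4 genotypes had 3 OG-enriched samples: WT, MUTYH-/ (MUTYH disrupted), OGG1-/ (OGG1 disrupted) and DKO (both disrupted). All cells were untreated, and the knockouts were made by CRISPR-Cas9 as single clones carrying short insertions or deletions. The sample names give 2 clones for each genotype, so that 2 of its 3 samples share a clone, and the study's methods derive both DKO clones from 1 OGG1-/ clone. The 6 samples without OGG1 are therefore not 6 independent losses of the gene, and p-values rest on the spread among these samples. In limma, the test used for windows, bins and genes, that spread is also pooled over others of like mean value. For 100 kb windows this pooling carried 84.0 degrees of freedom beside 9 of the window itself. The table of values names its columns only WT1 to WT3, MU1 to MU3, OG1 to OG3 and DKO1 to DKO3, and the columns were not tied to clones here. It holds no RNA or protein, so neither the cell line nor the loss of the enzymes was checked against expression.

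The site of the edit is shown because it defines the groups. The guide used for OGG1 matched GRCh38 at chr3:9750311-9750330 on the minus strand, inside exon 1 of OGG1 (chr3:9749952-9750423), and it is printed 5′ to 3′ with the NGG motif that Cas9 requires in capitals:
OGG1 guide: gtacgatgccccatgcgcctGGG
The 1 kb bin that contains the site, chr3:9750001-9751000, carried 41 to 66 OG reads in the columns without OGG1 and 27 to 49 in the others, so the bin held reads on both sides. These are reads not scaled for depth, and coverage of the site itself was not counted. A deletion of a few bases cannot be seen in a 1 kb bin, and the bin's OG value did not separate the groups (difference 0.881, SE 0.841, limma adjusted p = 0.996).

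Reads were counted in 2835235 bins of 1 kb on chromosomes 1 to 22 and X. The columns without OGG1 held 88183691 to 113912809 OG reads and those with OGG1 59599618 to 109741838, beside 78619378 to 101602624 input reads per column. A bin thus received 21.0 to 40.2 OG reads and 27.7 to 35.8 input reads on average. The deposited value of a bin is its OG reads minus scaled input reads, and each column was divided here by its own mean over all bins. A scaled value of 1 is therefore the genome average of that column, and differences between groups are given on this scale unless a log2 ratio is named. Over 100 kb windows the columns correlated with one another at r = 0.673 to 0.909, with a median of 0.815 among pairs of the same OGG1 status and 0.81 among pairs of different status. DKO1 had the lowest correlations with the others (0.673 to 0.742) and the weakest relation to GC content (r = 0.604, against 0.681 to 0.865 in the other columns).

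The genome as a whole was compared first. The mean value per bin, before division, was 7.04, 7.39 and 8.34 OG reads in WT, 9.64, 7.80 and 8.26 in MUTYH-/, 9.12, 8.84 and 9.71 in OGG1-/ and 8.34, 9.27 and 9.91 in DKO. The columns without OGG1 averaged 9.20 ± 0.574 (SD, n = 6) and the others 8.08 ± 0.915, a difference of 1.12 that did not pass after adjustment over 3 whole-column values (exact two-sided permutation within MUTYH status, p = 0.03, adjusted p = 0.09). The values overlapped, with MU1 above 4 of the 6 columns without OGG1, and the adjusted p was 0.03 when MU1 was left out. This mean follows the number of OG reads sequenced, whose median was 104768869 without OGG1 and 80134778 with it, and depth and genotype cannot be told apart here.

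In the 28114 windows of 100 kb, loss of OGG1 was accompanied by a called difference in 2 windows (0.00711% of those tested), 1 lower and 1 higher (0.00356% each). The higher window lay in TRAPPC9 on chromosome 8, which encodes a subunit of the TRAPP complexes of vesicle traffic. It lay in a segment where the input of 4 columns was raised as well, as described next. At an unadjusted p under 0.05 there were 1226 windows (4.36%), 565 of them higher (2.01%) and 661 lower (2.35%) without OGG1. Across all windows the median difference was -0.0013, the 1st and 99th percentiles were -0.214 and 0.226, and 263 windows differed by more than 0.25. A typical window had an SE of 0.0886, so that its 95% interval reached 0.176 to each side of the estimate.

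The TRAPPC9 window, chr8:140300001-140400000, had scaled values of 1.25, 1.33 and 1.29 in WT and 1.39, 1.37 and 1.36 in MUTYH-/. It had 1.25, 1.38 and 2.61 in OGG1-/ and 2.22, 2.40 and 2.61 in DKO. OG3 and the 3 DKO columns were high, and OG1 and OG2 lay within the range of the columns with OGG1. The mean was 2.08 ± 0.608 (SD, n = 6) without OGG1 and 1.33 ± 0.0525 with it, a difference of 0.745 (SE 0.148, 95% interval 0.452 to 1.04, limma adjusted p = 0.0312). When limma pooled the spread without regard to a window's mean value, the adjusted p was 0.533. Relative input was 2.29 in OG3 and 2.22, 2.19 and 2.19 in DKO1, DKO2 and DKO3, against 1.07 to 1.34 elsewhere. The log2 ratio of OG to input reads differed by 0.0003 between the groups (adjusted p = 0.9998). Without DKO1 the window differed by 0.756 (adjusted p = 0.00413), and it did not pass without OG3 (0.586), WT1, WT2, MU2, MU3, DKO2 or DKO3.

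The raised segment spanned chr8:140150001-140584000, 434 kb. It held exons 1 to 17 of the 23 exons of TRAPPC9, all of CHRAC1, a histone-fold subunit of a chromatin remodelling complex, and exons 3 to 19 of the 19 exons of AGO2, the Argonaute that cleaves RNA under small-RNA guidance. Input over the segment was 2.17 to 2.27 in OG3 and the DKO columns and 1.11 to 1.32 in the others, and the scaled OG value 1.93 to 2.83 against 1.26 to 1.57. The log2 ratio of OG to input, each relative to its column mean, lay between -0.05 and 0.10 in all 12 columns, so OG and input reads rose in like proportion.

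**Figure D1:**
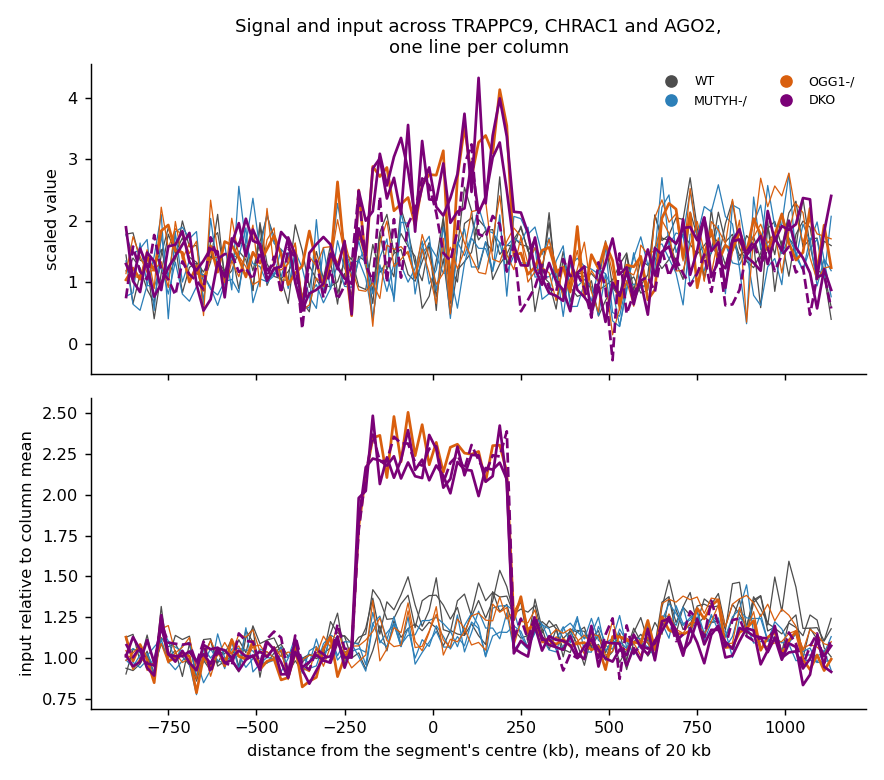
Scaled OG value and input reads, each relative to the column mean, in every column against the distance from the centre of the chromosome 8 segment in kb (means of 20 kb). OG3 and the 3 DKO columns, drawn with thicker lines (DKO1 dashed), have an input of 2.17 to 2.27 over the segment, and the other 8 columns 1.11 to 1.32.

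The 3 further windows of the chromosome 8 segment did not pass (differences 0.682 to 0.761, adjusted p = 0.0898 to 0.335). Among windows with even input the smallest p was that of a window in LYST on chromosome 1, which encodes the lysosomal trafficking regulator, and it was picked out after its values were seen. The LYST window, chr1:235700001-235800000, had scaled values of 1.12, 1.04 and 0.901 in WT, 1.05, 1.11 and 0.974 in MUTYH-/, 0.608, 0.743 and 0.660 in OGG1-/ and 0.669, 0.617 and 0.705 in DKO. All 6 columns without OGG1 lay below all 6 with it, and the difference was -0.351 with MUTYH present and -0.382 without it. The means were 0.667 ± 0.0516 and 1.03 ± 0.0844 (SD, n = 6 each), a difference of -0.367 (SE 0.0806, 95% interval -0.527 to -0.207), which did not pass (limma adjusted p = 0.0898). Relative input there was 0.944 to 1.05 without OGG1 and 0.928 to 1.15 with it, and the log2 ratio of OG to input differed by -0.15. The adjusted p moved between 0.0308, when columns were weighted by their agreement with the fit, and 0.9998, on the log2 ratio.

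Further down the order of p came windows in NAV3, PHACTR3 and ZMYND11, with adjusted p from 0.494 to 0.516. NAV3, a neuron navigator gene, had 0.642 ± 0.114 without OGG1 and 0.972 ± 0.158 with it. PHACTR3, a regulator of protein phosphatase and actin, had 1.20 to 1.54 without OGG1 and 0.855 to 1.18 with it, and was the highest-ranked window in which the values without OGG1 lay wholly above. ZMYND11, which encodes a reader of histone methylation, had 0.794 ± 0.167 without OGG1 and 1.13 ± 0.180 with it. Relative input in these 3 windows stayed between 0.929 and 1.16 in all columns.

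**Figure D2:**
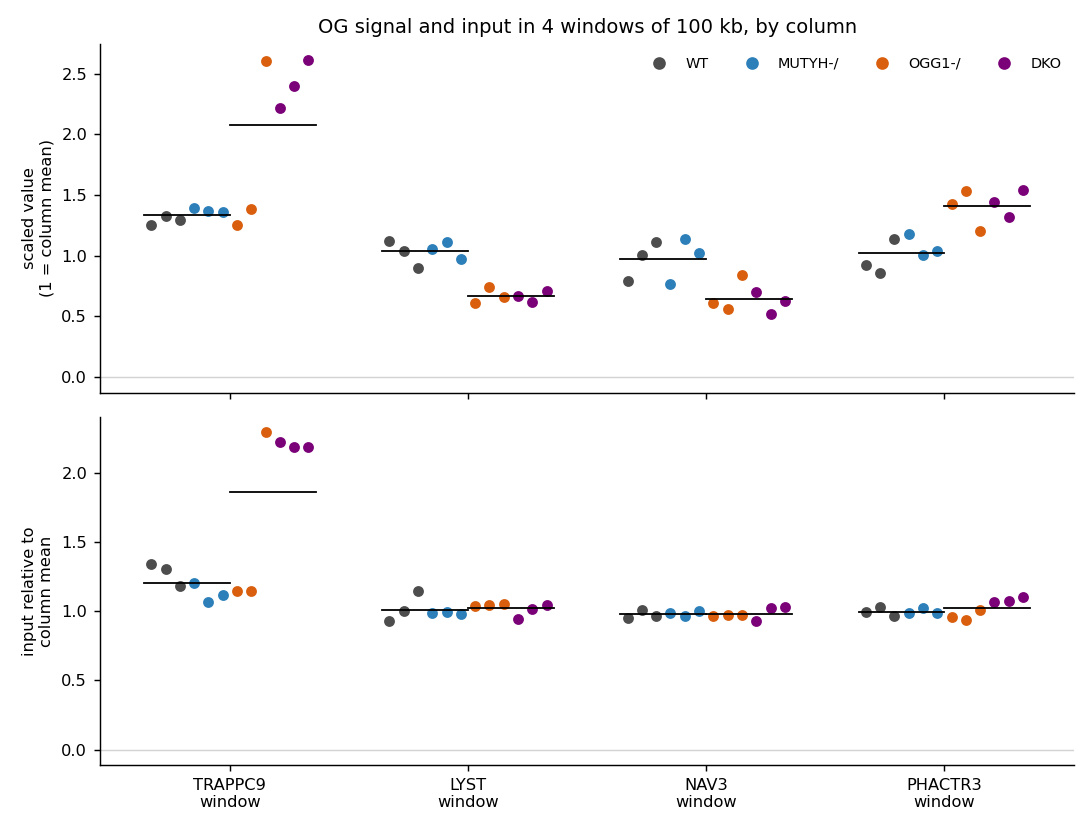
Scaled OG value (genome average of the column = 1) (top) and input relative to the column mean (bottom) of each of the 12 columns in 4 named 100 kb windows, with columns of both OGG1 states side by side and horizontal bars at the mean of 6 columns. In TRAPPC9 the columns without OGG1 split, with OG1 and OG2 among the columns that keep OGG1, whereas in LYST the ranges 0.608 to 0.743 and 0.901 to 1.12 do not meet.

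The values of the groups did not overlap in 50 windows (0.178%), 25 with higher and 25 with lower values without OGG1 (0.0889% each). The share was of like size in 1 kb bins (0.214%), gene bodies (0.231%) and upstream regions (0.204%), where none was called. Whether it exceeds chance was not tested. These windows were picked by their values, so the size of their differences follows from that choice. The 25 higher windows lay on 12 chromosomes with a median difference of 0.268 and a median GC content of 43.6%. The 25 lower windows lay on 10 chromosomes with a median difference of -0.206 and a median GC content of 37.8%. The log2 ratio of OG to input reads, which uses the same OG reads, had the same sign in all 50. The TRAPPC9 window was not among them, since OG1 and OG2 overlapped the columns with OGG1.

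To see which windows had input that differed between columns, each window's relative input was compared with the median column of like GC content, a check chosen after seeing the data. Input stayed within 0.3 (log2) of the median column in every column in 27358 windows, and left this range in 756 (2.69%). Of these, 643 were on chromosome 6, whose median relative input beyond 100 Mb was 1.32 in DKO1 and 1.35 in DKO2 and 0.966 to 0.997 in the other 10 columns, DKO3 included. Tested alone as log2 input reads, 14 windows (0.0498%) differed between the groups and 4815 (17.1%) had an unadjusted p under 0.05, and none of the 14 was called on the scaled value. On the log2 ratio of OG to input reads 1 window passed (0.00356%), and 1128 (4.01%) had an unadjusted p under 0.05. It was the WWOX window chr16:78600001-78700000 (0.53 higher without OGG1, limma, adjusted p = 0.0432), where OG1 and OG2 had 7 and 2 OG reads over 2 and 2 input reads, and MU1 and MU2 had 17 and 20 over 38 and 18. Its scaled value differed by 0.043 (adjusted p = 0.9999). Among the 27358 windows no difference passed (limma, 0 called, 1134 or 4.15% at an unadjusted p under 0.05), and LYST had an adjusted p of 0.359.

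The effect of losing OGG1 was then compared between the MUTYH backgrounds. The difference OGG1-/ minus WT had an SD of 0.138 over windows and the difference DKO minus MUTYH-/ an SD of 0.141, while their mean, the overall difference, had 0.0939. Across the 28114 windows these differences, which share no column, gave a correlation of r = -0.0886 (r = -0.0928 within the limit on input), and the sign was the same in 13323 windows (47.4%). Windows are not independent of each other, and the correlation is given as a description. OGG1-/ minus WT rose with the GC content of the window (r = 0.482) and DKO minus MUTYH-/ fell with it (r = -0.162).

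**Figure D3:**
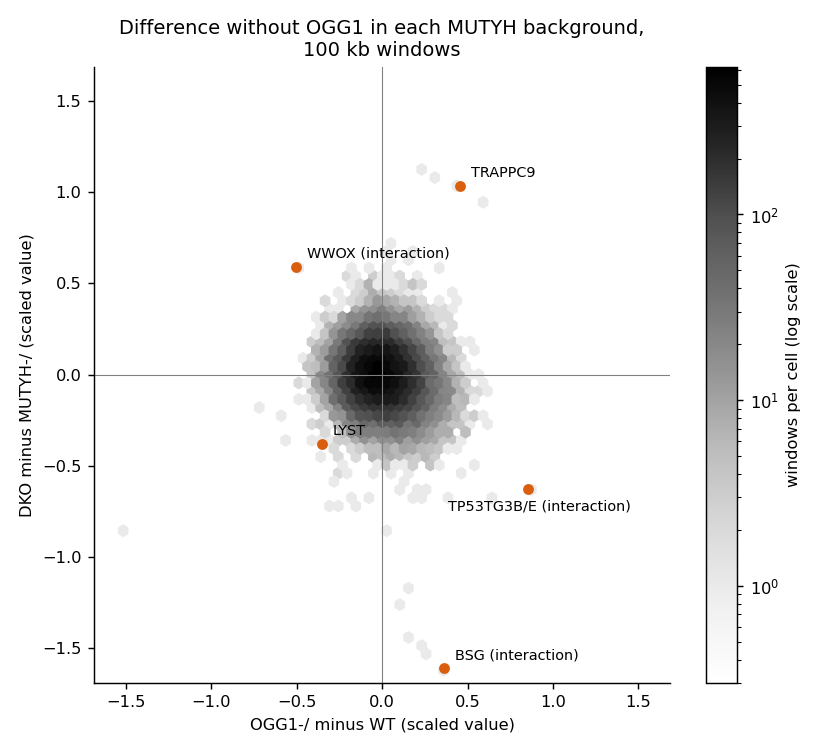
Difference in scaled OG value between OGG1-/ and WT (horizontal axis) and between DKO and MUTYH-/ (vertical axis) in 28114 windows of 100 kb, shaded by the number of windows per cell on a log scale. The cloud is round (r = -0.0886), TRAPPC9 and LYST lie where both differences have the same sign, and the 3 windows with a called interaction lie where they do not.

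The difference itself differed between the backgrounds in 3 windows (0.0107%, limma test of the interaction), with 1541 (5.48%) at an unadjusted p under 0.05. In WWOX (chr16:78600001-78700000), which encodes an oxidoreductase with WW domains, loss of OGG1 went with -0.505 when MUTYH was present and 0.591 when it was absent (adjusted p = 0.0160). Relative input there was 0.0118 and 0.0064 in MU1 and MU2 and 0.0006 in OG1 and in OG2, against 0.622 to 0.908 in the other 8 columns. A window at the start of chromosome 19 with BSG, TPGS1 and CDC34 (chr19:500001-600000) had 0.361 and -1.61 (adjusted p = 0.0173), with relative input of 2.0 and 1.91 in MU1 and MU2 and 0.905 to 1.30 elsewhere. The third window, with TP53TG3E and TP53TG3B (chr16:33300001-33400000), had 0.855 and -0.624 (adjusted p = 0.0130). Its relative input was even, 0.471 to 0.520, but these genes belong to a family of near-identical copies, among which reads are placed with uncertainty.

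WWOX also held a window that was called only when a single column was left out. At chr16:78500001-78600000 relative input was at most 0.108 in all 6 columns without OGG1 and in MU1 and MU2, and 0.661 to 0.762 in WT1, WT2, WT3 and MU3. The scaled value differed by -0.456 with all columns (adjusted p = 0.516) and by -0.538 without DKO1 or without MU1 (adjusted p = 0.0153 and 0.00946). WWOX is a very long gene at a common fragile site.

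Single values per chromosome were compared next. Chromosome 11 had scaled values of 1.02, 1.02 and 1.02 in WT, 1.03, 0.999 and 1.02 in MUTYH-/, 1.03, 1.04 and 1.03 in OGG1-/ and 1.04, 1.06 and 1.03 in DKO. The means were 1.04 ± 0.0128 without OGG1 and 1.02 ± 0.0107 with it (SD, n = 6 each), 1.98% higher, with the smallest p that the 400 arrangements allow (exact two-sided permutation, p = 0.005), which did not pass over 23 chromosomes (adjusted p = 0.115). Input on chromosome 11 was higher by 0.0091 too, and the difference was 0.0032 on the log2 ratio of OG to input. Chromosome 7 had the next smallest p, at 0.984 ± 0.00867 against 0.994 ± 0.00652 (exact p = 0.065, adjusted p = 0.537). Chromosome 20 had 1.23 ± 0.0574 against 1.16 ± 0.0462 (exact p = 0.07, adjusted p = 0.537), with input higher by 0.029. Chromosome 6 differed by 0.0434, made up of -0.0175 in OGG1-/ against WT and 0.104 in DKO against MUTYH-/, with DKO1 and DKO2 at 1.10 and 1.06 and the other 10 columns at 0.889 to 0.951. None of the 23 chromosomes passed. Chromosome 11 was alone at the smallest p that this exact permutation test allows, which adjusts to 0.115 over 23 chromosomes. A difference confined to a single chromosome could therefore not have passed, however large.

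Genomic features were compared in the same way, and no class differed beyond the spread of the columns. CpG islands averaged 1.18 ± 0.314 without OGG1 and 1.31 ± 0.254 with it (exact p = 0.30), and the lowest value, 0.608, was that of DKO1. Promoters averaged 1.31 ± 0.169 and 1.32 ± 0.116 (exact p = 0.81), and bins with a G-quadruplex motif 1.26 ± 0.106 and 1.24 ± 0.0759 (exact p = 0.765). None of 6 feature classes reached an adjusted p below 0.985. Bins were also sorted by GC content into 5 groups of equal size. The GC-poorest group had 0.496 ± 0.122 without OGG1 and 0.568 ± 0.100 with it (exact p = 0.28), and the GC-richest 1.59 ± 0.169 and 1.53 ± 0.143 (exact p = 0.49). The contrast between these groups ran from 0.664 in DKO1 to 1.43 in OG2, so columns without OGG1 stood at both ends of the range.

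**Figure D4:**
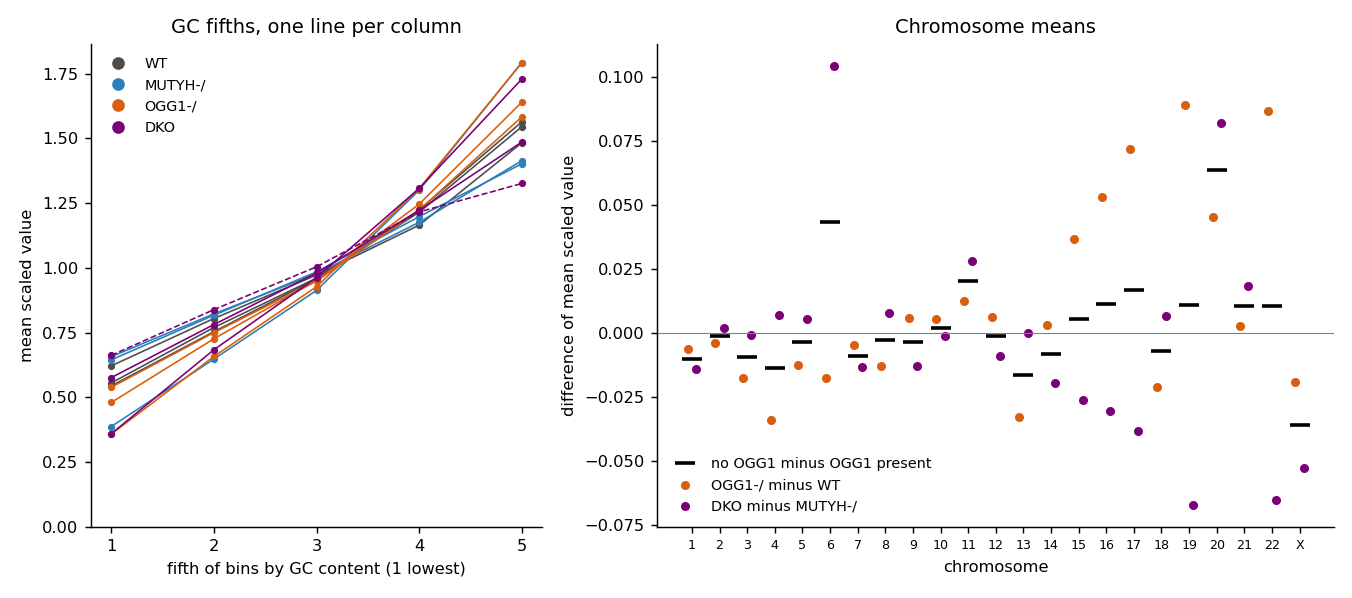
Left, mean scaled OG value of each column (one line per column, DKO1 dashed) in the 5 groups of bins by GC content; right, difference of the mean scaled value per chromosome, overall (black bars), for OGG1-/ minus WT and for DKO minus MUTYH-/ (points). DKO1 has the flattest rise from GC-poor to GC-rich bins, 0.664, and on chromosome 6 the differences are -0.0175 and 0.104.

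At the resolution of 1 kb bins no difference passed among 2805354 bins (limma, 0% called, smallest adjusted p = 0.570), with 138451 bins (4.94%) at an unadjusted p under 0.05 and 6003 (0.214%) without overlap. A typical bin had an SE of 0.735, and its 95% interval reached 1.47 to each side, more than the genome average itself. Changes of that size or below were not detectable at this depth, and larger ones did not pass after adjustment over all bins. A bin in TBC1D22A, for example, differed by -4.10 (SE 0.748, limma adjusted p = 0.995). With no adjustment, the thresholds of the study (p up to 0.01, and more than 0.5 in log2 either way) took 17873 bins (0.637%) on the log2 scale, 9459 higher and 8414 lower without OGG1. For the log2 scale, values below 0 were set to 0. The study applied these thresholds with edgeR to genomic features, comparing knockout cells with WT, so its counts are not of like measure.

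The bins with the smallest p were described as values. The bin chr15:85149001-85150000, near PDE8A, had -2.69 to -0.0864 without OGG1 and -0.731 to 4.01 with it, from 45 to 63 and 26 to 87 OG reads and from 64 to 110 and 51 to 73 input reads. In TBC1D22A the bin chr22:47070001-47071000 had 59 to 67 input reads without OGG1 and 33 to 44 with it, and OG reads that overlapped (19 to 52 and 27 to 60). A bin in DAPK2 (chr15:63959001-63960000) had -1.69 ± 1.30 and 2.24 ± 2.72. In the other direction, chr6:30748001-30749000 near IER3 had 50 to 65 OG reads without OGG1 and 20 to 43 with it, and chr12:38347001-38348000 near ALG10B had 27 to 51 and 5 to 18. The bin chr15:86428001-86429000 in AGBL1 had 2.64 ± 1.40 and -0.986 ± 1.86. All 5 bins other than the first had an adjusted p of 0.995. In the 3 lower bins mean input was higher without OGG1, at 91.7, 62.7 and 99.7 reads against 62.2, 38.8 and 79.7. In the 3 higher bins, near IER3, near ALG10B and in AGBL1, it was lower, at 39.5, 36.2 and 61.2 against 56.2, 42.2 and 66.3. The tested value has input subtracted and the bins were picked by p, so input differences in these directions are favoured by the choice.

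Genes were compared by the mean value over their bodies. None of 17294 gene bodies passed (limma, 0% called, smallest adjusted p = 0.270), 795 (4.6%) had an unadjusted p under 0.05 and 40 (0.231%) did not overlap. OR7A17, an olfactory receptor gene on chromosome 19, had the smallest p, with 0.386, 0.492 and 0.445 in OGG1-/, 0.406, 0.648 and 0.536 in DKO and 1.03 to 1.84 in the columns with OGG1 (difference -0.920, SE 0.135, adjusted p = 0.270). DDX51, an RNA helicase gene, and S100A5, a calcium-binding protein gene, came next among the lower genes, at -0.998 and -1.48 (adjusted p = 0.734). The higher genes with the smallest p were MAGEB16 (1.05 to 1.38 against 0.193 to 0.996), PHF1, a Polycomb-associated gene, at 2.01 ± 0.274 against 1.13 ± 0.406, and UQCRFS1, the Rieske subunit of respiratory complex III, at 1.05 ± 0.316 against 0.148 ± 0.407. A gene body had an SE of 0.156 at the median, so differences within 0.338 were inside its 95% interval.

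Neither edited gene showed a called difference. OGG1 had 1.60 ± 0.466 without OGG1 and 1.73 ± 0.227 with it over its body (difference -0.130, adjusted p = 0.999), and MUTYH 1.73 ± 0.520 and 1.54 ± 0.681 (difference 0.196, adjusted p = 0.999).

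Base excision repair genes, the pathway that OGG1 opens, showed no called gene among 23 tested of 25, 8 of them higher without OGG1 and with a median difference of -0.0433, beside 8723 of 17294 higher and a median of 0.0016 over all genes. PCNA, the sliding clamp of the repair polymerase, had the smallest p in the list and ranged from 0.578 to 2.08 without OGG1 and from 0.440 to 1.22 with it. XRCC1, the scaffold of the ligation step, had 1.39 ± 0.277 and 1.72 ± 0.253. MBD4 and UNG, glycosylases of mismatched thymine and of uracil, differed by 0.315 and -0.231 (adjusted p = 0.999 for all 4).

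Of 22 other DNA repair genes, 11 were higher, beside 8723 of 17294 over all genes, with a median of -0.0126 and none called. RAD23B and DDB2, which recognise damage in nucleotide excision repair, differed by -0.148 and 0.291. Of 18 oxidative stress genes tested, 10 were higher, with a median of 0.0094 and none called. At an unadjusted p under 0.05 were SOD2, the mitochondrial superoxide dismutase (difference 0.233), GCLM, a subunit of the first enzyme of glutathione synthesis (-0.385), and PRDX6, a peroxiredoxin (-0.492), each with an adjusted p of 0.999. SOD2 lies on the part of chromosome 6 where the input of DKO1 and DKO2 was raised, and these columns had its highest values, 1.47 and 1.48.

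Upstream regions were the 1 kb before each gene's start. None of 19628 passed (limma, 0% called, smallest adjusted p = 0.860), 1044 (5.32%) had an unadjusted p under 0.05 and 40 (0.204%) did not overlap. An upstream region had an SE of 0.622 at the median and a 95% interval of 1.27 to each side. Those with the smallest p were VIL1 (4.32 ± 1.30 without OGG1, 1.06 ± 1.23 with it), SNRPB2 (2.12 ± 0.873 and -0.195 ± 1.05) and NINJ2 (2.72 ± 1.08 and 0.387 ± 0.433) on the higher side. On the lower side they were ING5 (-0.652 ± 0.50 and 1.53 ± 0.592), GRK1 (0.334 ± 0.783 and 2.99 ± 0.931) and SMIM39 (0.132 ± 1.41 and 2.69 ± 0.834).

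In the repair lists, upstream regions had medians of -0.194 over 25 base excision repair genes and -0.235 over 21 other repair genes, beside -0.0276 over all genes, and none was called. APEX1, the endonuclease that acts after a glycosylase, had 0.632 ± 1.40 without OGG1 and 2.01 ± 1.12 with it, and POLL, a repair polymerase, had 2.02 ± 0.650 and 0.684 ± 0.695. XRCC6, which binds DNA ends as part of Ku, had 0.490 ± 0.841 and 2.55 ± 1.48, and ERCC1, part of a nuclease of nucleotide excision repair, 1.19 ± 0.847 and 2.68 ± 1.10. The adjusted p of these 4 was 0.924 to 0.930. In the oxidative stress list 12 of 21 were higher (median 0.0442), beside 9473 of 19628 over all genes. SOD2 had the smallest p in the list (difference 1.74, limma adjusted p = 0.924). The highest upstream values of SOD2, 3.61 and 4.27, were those of DKO1 and DKO2, whose input was raised on that part of chromosome 6.

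Upstream regions with a G-quadruplex motif were looked at because runs of guanine are readily oxidised and because VEGFA, SIRT1 and NTHL1 are promoters discussed in the study. The motif was 4 runs of at least 3 G with 1 to 7 bases between runs, searched on both strands, and 7958 of 19628 upstream regions (40.5%) held it. The median difference was -0.0485 in regions with the motif and -0.0126 in those without. One match in each of the 3 promoters is printed 5′ to 3′ on its own strand from GRCh38, with its runs of guanine in capitals, and neither OGG1 nor MUTYH held a match in its 1 kb:
VEGFA, chr6:43770123-43770142, plus strand: GGGGcGGGccGGGGGcGGGG
SIRT1, chr10:67884587-67884610, plus strand: GGGcGGGGGcggcgatGGGGcGGG
NTHL1, chr16:2048146-2048166, minus strand: GGGcgcGGGtgaGGGcccGGG
VEGFA, the vascular growth factor gene, had upstream values of 1.29 ± 1.02 without OGG1 and 1.76 ± 0.652 with it (difference -0.473, SE 0.618, adjusted p = 0.988). SIRT1, a deacetylase gene, had 0.547 ± 0.422 and 0.899 ± 0.335 (difference -0.351, SE 0.480, adjusted p = 0.988). NTHL1, the glycosylase of oxidised pyrimidines, had 2.24 ± 1.88 and 1.68 ± 0.751 (difference 0.558, SE 0.707, adjusted p = 0.987). The values of the groups overlapped in all 3 promoters.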

How the data were processed

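OG-seq had been run on 12 OG-enriched and 12 input samples of HAP1 cells. Per the study's methods and the submitters' processing notes, reads were trimmed with cutadapt 2.8, aligned to GRCh38 with Bowtie2 2.3.5.1 and counted with bedtools in 1000 bp bins. The authors scaled input by signal extraction scaling and subtracted it, and the deposited score is this difference per bin, in OG reads on a linear scale, below 0 where scaled input exceeds OG. The columns were mapped to genotypes by name, not to single samples. Because each score is whole OG reads minus scaled counts of 2 input runs, reads were recovered from the decimals (tolerance 1e-09, fewest input reads taken where several solutions matched), leaving 3 to 14 bins per column unsolved. These reads were used for depth, input and the log2 ratio only.

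Scores were divided by the column mean over all bins and averaged over 100 kb windows, gene bodies and upstream regions (GENCODE annotation). CpG islands were rebuilt from the reference sequence. The main test was limma 3.58.1 in R 4.3.3 with OGG1 and MUTYH status as terms, a mean-dependent prior and Benjamini-Hochberg adjustment over all features, called below 0.05. edgeR, which the authors used (3.42.4), needs counts and was not run on these scores. Single values were tested by exact two-sided permutation within MUTYH status (400 arrangements), adjusted within each family. The scripts were tested on simulated data. Windows called, and otherwise the 3 bins, genes and upstream regions with the smallest p in each direction, OGG1, MUTYH, VEGFA, SIRT1, NTHL1 and members of each list with the smallest p were named, and 1 called window is not reported here. Members, lists and tests were chosen with earlier results of these data known. For windows, alternatives covered scale, division, block, weights, window size, input and each column left out, and fewer of these were run for other units. Sequences came from the GRCh38 reference and the guide from the study's supplement.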

Additional observations from a re-analysis of the deposited data

Results flagged for a closer look

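Within the 6 columns of a side, a single column stood apart from the other 5 in 7 of 80 sets of values, and chance sets about 1 in 20 apart. MU1 was the lowest of the columns with OGG1 on chromosome 6 (0.889, others 0.929 to 0.951), on chromosome 8 (0.912, others 0.939 to 0.951) and in the middle of the 5 groups of GC content (0.913, others 0.958 to 0.985). DKO2 was the lowest of the columns without OGG1 on chromosome 7 (0.967, others 0.985 to 0.991) and the highest on chromosome 11 (1.065, others 1.029 to 1.037). MU2 was the lowest with OGG1 on chromosome 11 (0.999, others 1.02 to 1.03), so that the chromosome 11 difference holds a column that stands apart on each side. Without DKO2 chromosome 11 differed by 0.0151 and without MU2 by 0.0161 (exact permutation, adjusted p = 0.23 and 0.115). OG2 was highest in introns (1.035, others 1.029 to 1.03).

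The effect of losing OGG1 differed between MUTYH backgrounds in 3 windows by a test of the interaction in limma. The coefficient tested was the effect without MUTYH minus the mean over both backgrounds, so it is smaller than the gap between them. It was -0.740 in the TP53TG3E and TP53TG3B window (effects 0.855 with MUTYH and -0.624 without). The coefficient was 0.548 in the WWOX window (-0.505 and 0.591) and -0.985 in the BSG window (0.361 and -1.61). The last 2 are windows in which the input of MU1 and MU2 also stood apart, and in the WWOX window that of OG1 and OG2 did too. Of the 3, 1 window passed when only windows within the limit on input were tested, and none on the log2 scale.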

How the results depend on the processing

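The TRAPPC9 call rests on columns whose input also changed, and the count of 2 called windows depended on most settings. It was 0 on the log2 scale with a pseudocount of 1 or 0.5, without the mean-dependent prior, in windows of 10 kb or 1 Mb, and within the limit on input on the scaled value, centred by GC content or as the log2 ratio. It was 1 without the MUTYH term and 1 on the log2 ratio, 8 with column weights, 14 on input reads alone and 23 (21 higher) without division by the column mean, where the median window shifted by 1.09 reads. Leaving out a column gave 0 to 7 windows, with 0 without MU2, MU3, OG3, DKO2 or DKO3 and 7 without DKO1. The replicate numbers did not pair the columns (same-number pairs correlated at -0.413 to 0.339, 4 of 18 above 0.1, and 6 of 12 columns closest to their own number), and a replicate block gave 3 windows. On the log2 ratio the TRAPPC9 windows at chr8:140400001-140500000 (-0.011) and chr8:140200001-140300000 (-0.017) showed no difference (limma adjusted p = 0.9998 each), although the sign was negative. Bins passing numbered 8 and 22 (1 and 3 of them higher) on the log2 scale with a pseudocount of 1 and 0.5, 1 without the mean-dependent prior, 17873 with the study's thresholds, and 0 to 1 without a column. Gene bodies passing numbered 1 on the log2 scale and 0 to 1 without a column. The interaction called 0 windows on the log2 scale and 1 within the limit on input. Of the single values, 4 passed on input reads alone and 0 to 1 without a column, the 1 being the mean value per bin without MU1 (1.44, adjusted p = 0.03, exact permutation). No upstream region passed on the log2 scale with a pseudocount of 1, centred by GC content, with a replicate block or without any 1 column, the settings run for these regions. The limit on input, the input values and the settings of the interaction were added after seeing the data. The causes were not tested. Columns share clones, and 1 kb bins are limited by depth.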

Other observations

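Input reads alone separated the groups in 14 windows of 100 kb (limma on log2 input, adjusted p from 0.0121 to 0.0472), 10 lower and 4 higher without OGG1, by 0.14 to 0.26 on the log2 scale. The lower windows included RPH3AL (-0.20) and DOC2B (-0.26) near the start of chromosome 17, AXIN1 (-0.20) near the start of chromosome 16, PLEKHG4B (-0.19) near the start of chromosome 5 and FAM240C (-0.17) near the end of chromosome 2. The higher windows included LRRIQ1 and ALX1 on chromosome 12 (0.14). On the scaled OG value each of the 14 had an adjusted p of 0.9999. Relative input also differed, without OGG1 minus with it, by -0.0518 in promoters, -0.0200 in exons, -0.0225 in bins with a G-quadruplex motif and 0.0044 in intergenic regions (exact permutation, adjusted p = 0.045 each). Across all 28114 windows the difference in log2 input fell with GC content (r = -0.417, given as a description), so these windows and classes are not separate from that relation.

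Input also changed along other stretches. At chr10:89800001-90400000 OG1 and OG2 had raised input over 6 windows (median 0.92 and 0.93, log2 from the median column), and WT1 and WT2 had a smaller rise over 5 of these windows, from 89900001 on (0.36 and 0.34). MU1 and MU2 had raised input over 7 windows at chr19:300001-1000000 (0.90 and 0.89). MU3 had raised input over 5 windows of chromosome 8 (0.88) and lowered input over 5 windows of chromosome 15 (-0.81).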
